A study of Mus musculus with 12 samples.

Results

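Small nucleolar ribonucleoproteins (snoRNPs) were examined here through 10 genes, chosen by name with earlier results of these data known: Nop56, Nop58, Fbl and Snu13 of the box C/D class, Dkc1, Gar1, Nhp2 and Nop10 of the box H/ACA class, and the assembly and transport factors Naf1 and Nolc1. They are 10 of the 56691 mouse genes in the count table, each matched exactly 1 gene identifier, and all 10 passed the filter on low counts. The samples were splenic CD4+ T cells of Tg4 Nr4a3-Tocky Il10-GFP mice, which carry a transgenic T cell receptor for a myelin basic protein peptide, a timer reporter driven by Nr4a3 that follows receptor signalling, and a GFP reporter of Il10. Every mouse, controls included, received 4 mg/kg of [4Y]-MBP peptide, an antibody 24 h later and 0.4 mg/kg of the peptide 30 min after the antibody, and spleens were taken 12 h after that second dose. The antibody was an isotype pool of rat IgG1 and IgG2a, anti-Lag3, anti-PD-L1 or both blocking antibodies (co-blockade, CB), with 3 mice in each of the 4 groups. The mice were young adults of both sexes, and Nr4a3-Blue+ Red+ cells, those with both new and persistent reporter signal, were sorted as responders. The groups of a sort were told apart by CD4 antibodies of different colours, a different colour for each treatment, so stain and treatment cannot be told apart.

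snoRNPs are complexes of a small guide RNA with a fixed set of proteins, and in the nucleolus they modify ribosomal RNA at sites to which the guide base-pairs. Box C/D particles carry the methyltransferase fibrillarin (Fbl) and add 2′-O-methyl groups, whereas box H/ACA particles carry the pseudouridine synthase dyskerin (Dkc1) and convert uridine to pseudouridine. Dyskerin and its partners also bind the RNA of telomerase, and inherited defects in them are a cause of the telomere disorder dyskeratosis congenita. T cells that are activated by antigen enlarge and make ribosomes before they divide.

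Most guide RNAs of animals lie in introns of other genes, and 10 annotated snoRNA genes lay inside 3 of the 10 genes on the same strand: 5 in Nop56, 4 in Nop58 and 1 in Dkc1. Of these, 7 held both the core of box C (TGATG, searched in the first 25 bases) and box D (CTGA, searched in the last 20 bases). The libraries were primed on poly(A) tails, which mature snoRNAs lack, and 7 of the 10 had no read in any sample. Of these, Gm24451, Gm23187, Gm23650, Snord57 and Gm26293 share 70 to 100 bases with exons of their host on the same strand. How reads that fit both genes were counted is not given in the sources used here, so their empty rows may reflect the counting. Gm26287 and Gm25520, also without reads, and the 3 with reads share 0 exonic bases. The 3 with reads had 63 in all 12 samples together, so the levels of the guides themselves could not be compared between groups. Those 3 are shown because they are the guides that the table counted at all, with boxes C and D in capitals; sequences and positions are from the GRCm38 annotation. Snord110 lies in Nop56 at chr2:130275506-130275573 (+ strand, 6 reads), and Snord70 at chr1:59691934-59692020 (39 reads) and Snord11 at chr1:59704790-59704873 (18 reads) lie in Nop58, on the + strand.
Snord110: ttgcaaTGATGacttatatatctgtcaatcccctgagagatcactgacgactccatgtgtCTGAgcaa
Snord70: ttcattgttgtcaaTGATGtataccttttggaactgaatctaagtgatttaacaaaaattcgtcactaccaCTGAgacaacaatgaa
Snord11: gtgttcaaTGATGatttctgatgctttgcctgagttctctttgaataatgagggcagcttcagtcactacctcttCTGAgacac

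Promoter windows of 300 bases, from 250 before to 50 after the RefSeq start (GRCm38.p6), were found for 8 of the 10 genes. They were searched on both strands for the E-box CACGTG, the related CATGTG and the ETS motif CCGGAAG. None of the 8 windows held CACGTG, against 7.15% of all 32851 windows. CATGTG was found in 2 (Nop10 and Dkc1; 14.2% of all windows) and CCGGAAG in 4 (Gar1, Nhp2, Snu13 and Nolc1; 8.86% of all windows). Shown, with motif matches in capitals, are the windows of Dkc1, Nop58 and Nolc1, whose levels differed between CB and each other group. That of Nop10 is shown as well. Nop10 reached an adjusted p under 0.05 in no comparison (edgeR), and neither did Fbl, Snu13 or Gar1. The windows shown lie at chrX:75095604-75095903, chr1:59684756-59685055, chr19:46075597-46075896 and chr2:112261676-112261975, all on the + strand. The Dkc1 match starts at position -7 from the start site and the Nop10 match at -59, the latter on the opposite strand as CACATG, and the Nolc1 ETS match starts at -14. A match is a description of the letters, not of binding, and whether the motifs bear on the levels was not tested.
Dkc1: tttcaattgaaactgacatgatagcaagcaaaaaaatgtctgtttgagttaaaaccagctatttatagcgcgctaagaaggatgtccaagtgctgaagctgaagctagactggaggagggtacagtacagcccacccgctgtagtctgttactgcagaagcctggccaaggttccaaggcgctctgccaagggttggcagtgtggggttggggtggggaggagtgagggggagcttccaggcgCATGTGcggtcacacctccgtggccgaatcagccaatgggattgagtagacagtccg
Nop58: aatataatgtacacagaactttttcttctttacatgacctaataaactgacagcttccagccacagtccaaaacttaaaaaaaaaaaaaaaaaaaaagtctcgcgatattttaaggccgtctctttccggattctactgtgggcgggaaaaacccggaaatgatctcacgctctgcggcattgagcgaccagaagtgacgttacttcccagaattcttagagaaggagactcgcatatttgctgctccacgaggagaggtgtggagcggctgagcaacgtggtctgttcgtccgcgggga
Nolc1: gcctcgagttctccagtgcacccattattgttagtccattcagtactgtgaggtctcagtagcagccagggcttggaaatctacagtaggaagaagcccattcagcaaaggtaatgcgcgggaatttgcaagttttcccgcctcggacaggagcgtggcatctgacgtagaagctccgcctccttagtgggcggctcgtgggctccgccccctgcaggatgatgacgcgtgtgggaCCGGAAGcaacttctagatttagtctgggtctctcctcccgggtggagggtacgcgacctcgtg
Nop10: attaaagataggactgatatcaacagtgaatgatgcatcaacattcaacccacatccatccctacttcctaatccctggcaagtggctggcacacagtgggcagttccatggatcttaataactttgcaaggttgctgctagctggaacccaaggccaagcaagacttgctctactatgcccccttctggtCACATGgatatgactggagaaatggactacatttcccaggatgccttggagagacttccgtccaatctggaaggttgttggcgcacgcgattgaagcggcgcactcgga

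Each library was a 3′ mRNA library with 16449370 to 22151025 reads on genes, and spike-in reads were 0.719% to 1.29% of the total. The 6 markers of CD4 T cells had reads in all libraries, Cd4 at 199 to 330 CPM (counts scaled to a common library size) among them, whereas Cd14 was at 0 in all 12 and Cd79a at 0 in 7. In CPM of all gene reads, the summed CD4 T cell markers ranged from 1957 to 2145 in isotype and 1721 to 1868 in CB, the Nr4a3, Nr4a1 and Il10 sum from 156 to 187 and 97.3 to 152, the 5 erythroid genes from 240.2 to 476 and 152 to 195, and the CD8 T cell genes Cd8a and Cd8b1 from 39.3 to 48.0 and 24.7 to 33.8. All 4 sums were thus lower in CB than in isotype without overlap, and Cd8a itself reached at most 3.29. B cell, myeloid, NK cell and platelet sums overlapped between isotype and CB and were at most 23.4 in any library. With anti-PD-L1 the myeloid sum was 14.7 to 23.4, above isotype (7.18 to 11.8) and CB (4.80 to 9.23) without overlap, and the CD8 T cell sum (24.2 to 30.3) and the erythroid sum (169 to 215) were below isotype without overlap. The CD4 T cell sum with anti-PD-L1 (1895 to 2055) and with anti-Lag3 (1973 to 2078) was above that of CB without overlap, as was the erythroid sum with anti-Lag3 (222 to 291). The part of these marker differences in the results was not tested. The samples are bulk RNA, in which fewer cells of a type and less RNA per cell cannot be told apart.

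The first question was whether the snoRNP genes respond to co-blockade. Because the genes were chosen with earlier results of these data known, the shares of all genes given beside them are a description, not a test. Together the 10 genes took 0.150% to 0.169% of gene reads in isotype, 0.172% to 0.183% with anti-Lag3, 0.181% to 0.191% with anti-PD-L1 and 0.232% to 0.243% in CB. Of the 10, 6 were higher in CB than in isotype at an adjusted p under 0.05 (edgeR quasi-likelihood test, Benjamini-Hochberg over 15138 genes) and none was lower, whereas 2.33% of all genes tested were called higher. The 6 were Nop58, Nop56, Dkc1, Nhp2, Naf1 and Nolc1, and each of the 6 had every CB sample above every isotype sample, which held for 10.4% of all genes. The median log2 fold change was 0.57 over the 10 genes and 0.00 over all genes. The other 4 genes, Fbl, Snu13, Gar1 and Nop10, had log2 fold changes from 0.04 to 0.40 and did not pass.

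**Figure D1:**
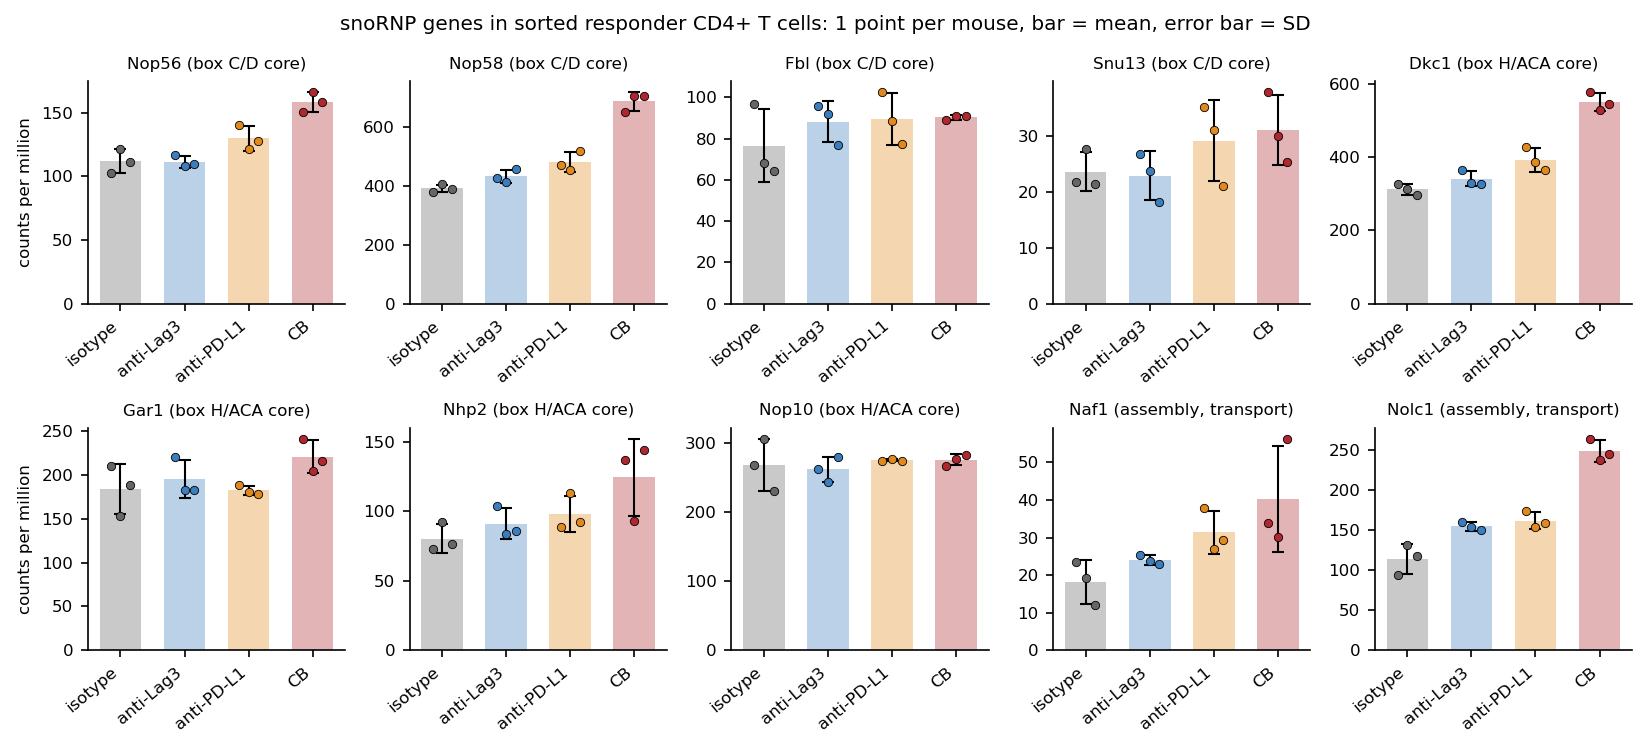
TMM-normalised CPM of the 10 snoRNP genes (y axes start at 0) in the 4 groups, 1 point per mouse, with bars for means and error bars for SD (n = 3). CB points lie above all other groups for Nop58, Nop56, Dkc1 and Nolc1, whereas Nop10 and Fbl points of the groups overlap.

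Among the box C/D proteins, Nop58 had the most reads. Nop58 (chr1:59684971-59719044) pairs with Nop56 as the scaffold of the particle, and it measured 381, 406 and 388 TMM-normalised CPM in the isotype mice and 427, 414 and 456 with anti-Lag3. It measured 470.1, 452 and 519 with anti-PD-L1 and 650.5, 706 and 705 in CB. Every CB mouse was above every mouse of the other groups, and the CB mean of 687 ± 32 (SD, n = 3) stood against 391 ± 13 in isotype. The log2 fold change over isotype was 0.81 (SE 0.09, adjusted p = 1.95e-06), or 1.76-fold, and it stayed called in all 19 alternative settings.

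Nop56 (chr2:130274430-130279313), the other scaffold protein, measured 102.5, 122 and 111 CPM in isotype, 116.5, 108 and 109.6 with anti-Lag3, 141, 121 and 128 with anti-PD-L1, and 151, 166 and 158 in CB. The 3 CB mice were again above the other 9. The log2 fold change over isotype was 0.50 (SE 0.12, adjusted p = 0.0103), and it was not called without isotype 1 (0.44, adjusted p = 0.0736) or with DESeq2 against a log2 fold change of 0.2 (adjusted p = 0.259). The last 500 bases of Nop56 shared stretches of 209 to 447 bases, at 95.3% to 100% identity, with 5 processed pseudogenes, which held 0 to 56 reads each, so Nop56 reads with more than 1 best match would have been left out of the count of uniquely mapped reads.

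Fbl (chr7:28169710-28179269), the methyltransferase, measured 96.9, 68.2 and 64.4 CPM in isotype and 89.0, 91.1 and 91.0 in CB. The CB mice lay within the isotype range, and the log2 fold change was 0.24 (95% interval -0.08 to 0.56, adjusted p = 0.469). The count of Fbl is uncertain: its last 500 bases held a stretch of 399 bases identical to a transcript of Tulp4 and of 386 bases identical to the processed pseudogene Gm5812, which held 2844 and 150 reads. Snu13 (chr15:82040525-82047598), which binds the kink-turn of box C/D RNA and also that of spliceosomal U4, measured 21.8, 27.7 and 21.3 CPM in isotype and 37.9, 30.1 and 25.4 in CB. Its groups overlapped, with a log2 fold change of 0.40 (95% interval -0.11 to 0.91, adjusted p = 0.451).

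Among the box H/ACA proteins, Dkc1 and Nhp2 were called and Gar1 and Nop10 were not. Dkc1 (chrX:75095854-75109777), the catalytic subunit that telomerase shares, measured 325, 314 and 297 CPM in isotype, 365, 330.0 and 328 with anti-Lag3, 428, 386 and 364 with anti-PD-L1, and 577, 528 and 544 in CB. No CB mouse overlapped with any other mouse, and the CB mean was 549.8 ± 25 against 312 ± 14 in isotype. The log2 fold change over isotype was 0.82 (SE 0.09, adjusted p = 4.15e-06), or 1.76-fold, and was called in all 19 alternative settings.

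Nhp2 (chr11:51619735-51623714), an RNA-binding subunit, measured 72.9, 92.0 and 76.1 CPM in isotype and 137, 92.7 and 144 in CB. CB 2 lay just above the highest isotype mouse and the others well above it, with a log2 fold change of 0.63 (SE 0.16, adjusted p = 0.0162). The call was lost without isotype 1, isotype 3, CB 1 or CB 3, where the log2 fold change was 0.56, 0.59, 0.56 and 0.51 and the adjusted p at most 0.144, and with DESeq2 against 0.2 (adjusted p = 0.335). Nhp2 shares 44 exonic bases at its end with Rmnd5b on the other strand, and whether reads were counted by strand is not given in the sources used here; Dkc1 shares 45 with Mpp1 and Nop56 5 with Idh3b in the same way.

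Gar1 (chr3:129824912-129831396), which supports catalysis and joins late in place of Naf1, measured 209.8, 153 and 189 CPM in isotype and 241.5, 204.5 and 216 in CB. The groups overlapped through isotype 1, and the log2 fold change was 0.26 (95% interval 0.02 to 0.51, adjusted p = 0.289). Nop10 (chr2:112261926-112263269), a small protein that braces dyskerin, measured 268, 306 and 230.4 CPM in isotype and 267, 277 and 282.5 in CB. All 3 CB mice lay within the isotype range, and the log2 fold change of 0.04 had a 95% interval of -0.18 to 0.26 (adjusted p = 0.954).

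The assembly and transport factors had the highest fold changes of the 10 genes with all samples included, a place that Naf1 lost without CB 3 (0.82, against 0.83 for Dkc1). Nolc1 (Nopp140, chr19:46075863-46085530), a phosphoprotein that shuttles to the nucleolus and binds both classes of snoRNP, measured 93.3, 131 and 117 CPM in isotype, 160.2, 153 and 149.6 with anti-Lag3, 174, 153.5 and 158 with anti-PD-L1, and 264, 237 and 244.5 in CB. Isotype mice were lowest and CB mice highest without overlap, and the blocked groups in between overlapped with each other. The log2 fold change of CB over isotype was 1.13 (SE 0.12, adjusted p = 1.95e-06), or 2.18-fold, and was called in all 19 alternative settings.

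Naf1 (chr8:66860217-66890564), which holds the place of Gar1 in immature H/ACA particles, had few reads, with 23.6, 19.1 and 12.0 CPM in isotype, 25.5, 23.7 and 22.9 with anti-Lag3, 37.8, 26.8 and 29.5 with anti-PD-L1, and 34.0, 30.2 and 56.4 in CB. CB 3 stood well above the rest, and the CB and anti-PD-L1 mice overlapped. The log2 fold change over isotype was 1.14 (SE 0.27, adjusted p = 0.00965). It was 0.91 without isotype 3 and 0.82 without CB 3, and neither was called, nor was Naf1 with DESeq2 against 0.2 (adjusted p = 0.0885).

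**Figure D2:**
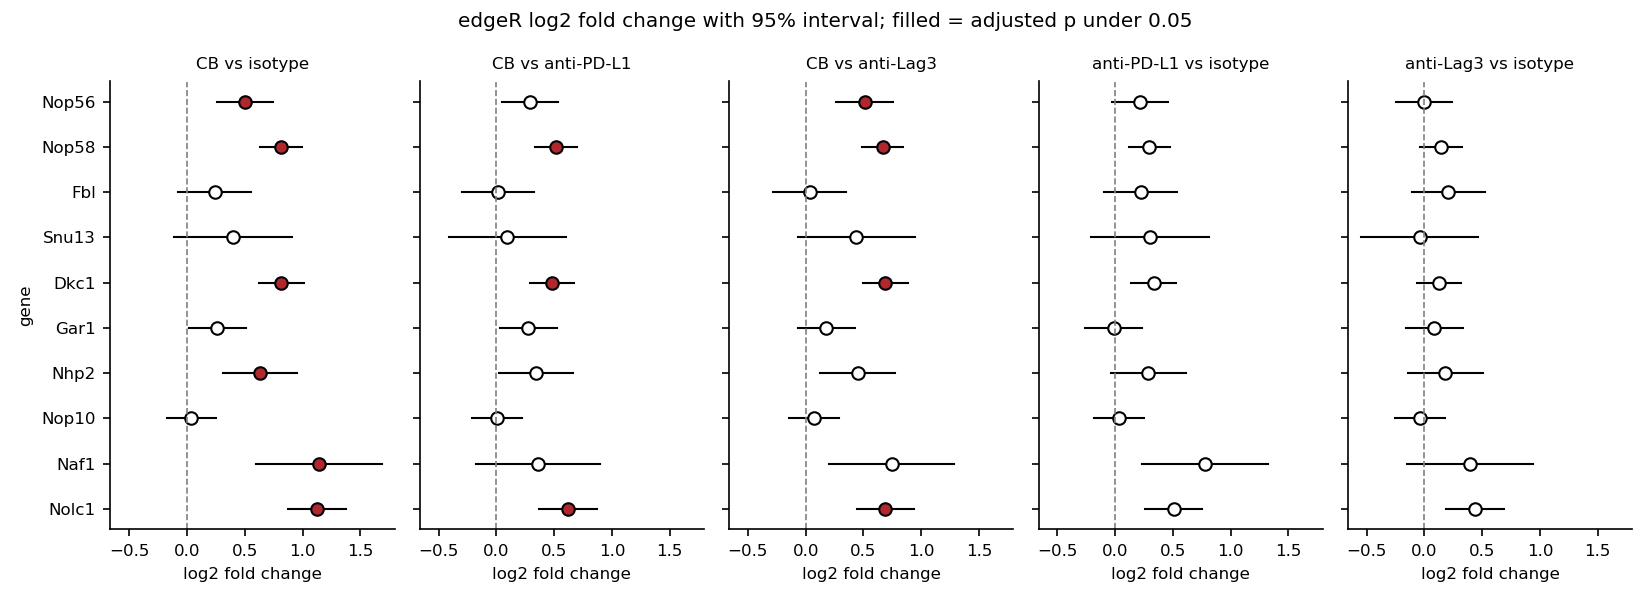
edgeR log2 fold changes (x axis) of the 10 genes (y axis) in 5 comparisons, with 95% intervals; filled points had an adjusted p under 0.05. Filled points number 6 for CB vs isotype, 3 for CB vs anti-PD-L1, 4 for CB vs anti-Lag3 and 0 for either antibody alone.

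The next question was whether both antibodies together gave higher levels than either alone. These comparisons share the CB samples with each other and with the comparison above, so their values stand side by side and are not independent of it. Against anti-PD-L1, 3 of the 10 genes were called higher, where 0.205% of all genes were: Nop58 with a log2 fold change of 0.52 (SE 0.09, adjusted p = 0.00814), Dkc1 with 0.48 (SE 0.09, adjusted p = 0.0204) and Nolc1 with 0.62 (SE 0.12, adjusted p = 0.0204). In 5 of the 10 every CB sample was above every anti-PD-L1 sample, against 6.94% of all genes; beside the 3 called these were Nop56 (0.29) and Gar1 (0.27). The calls depended on single libraries and on the fit: none of the 3 remained without anti-PD-L1 2 or without CB 3 or when the 2 groups were fitted alone, and Nop58 alone without anti-PD-L1 3 or CB 1 or with DESeq2 against a log2 fold change of 0.2.

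Against anti-Lag3, 4 of the 10 genes were called higher, where 0.390% of all genes were. Nop58 had a log2 fold change of 0.67 (SE 0.09, adjusted p = 0.000126), Dkc1 0.69 (SE 0.09, adjusted p = 0.000164) and Nolc1 0.69 (SE 0.12, adjusted p = 0.00319), and all 3 were called in all 19 alternative settings. Nop56, with 0.51 (SE 0.12, adjusted p = 0.0347), lost its call without any single anti-Lag3 or CB library and with DESeq2 against 0.2 (adjusted p = 0.755). Every CB sample was above every anti-Lag3 sample in 5 of the 10 genes, these 4 and Naf1 (0.74, adjusted p = 0.264), against 7.68% of all genes. Fbl and Nop10 had log2 fold changes of 0.03 and 0.08, and Snu13 one of 0.44 with an interval from -0.07 to 0.95.

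Each antibody alone was then compared with isotype. With anti-PD-L1 none of the 10 genes was called by edgeR with the filter on low counts, where 5 genes in all were (0.0330%), and 4 were higher at an unadjusted p under 0.05 (3.81% of all genes): Nolc1 with 0.51, Dkc1 with 0.33, Nop58 with 0.30 and Naf1 with 0.78. DESeq2's Wald test against 0 called 3 of them (Nop58, Dkc1 and Nolc1), where 31 of 13273 genes with an adjusted p were called higher. That against 0.2 called none of them, where 6 of 14990 genes were called higher. With no filter edgeR called Nolc1 (adjusted p = 0.0353), where 21 of 20672 genes were called higher. For these genes the call with anti-PD-L1 alone thus depends on the test and, for Nolc1, on the filter. With anti-Lag3 none of the 10 was called by edgeR or DESeq2. For that comparison edgeR with the filter called 0 of all 15138 genes and DESeq2 against 0 called 9, so few calls were not particular to the snoRNP genes. At an unadjusted p under 0.05 only Nolc1 of the 10 was higher (0.44, SE 0.12, adjusted p = 0.805), against 2.91% of all genes. The intervals of the anti-Lag3 effect were -0.03 to 0.32 for Nop58 and -0.06 to 0.32 for Dkc1.

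The interaction asks whether the CB level differs from the sum, on the log2 scale, of the 2 single effects. It was called for none of the 10 genes by edgeR or DESeq2. Among all 15138 genes edgeR with the filter called 0, and DESeq2 against 0 called 5. The absence of calls is thus not particular to the snoRNP genes. At an unadjusted p under 0.05, 2 of the 10 were above 0 (3.10% of all genes): Nop58 at 0.37 (95% interval 0.12 to 0.62) and Dkc1 at 0.36 (95% interval 0.09 to 0.63), both with an adjusted p of 0.804 (edgeR). For Nolc1 the interaction was 0.18 with an interval of -0.17 to 0.53, and for Naf1 -0.04 with an interval of -0.80 to 0.72. With 3 mice a group, these intervals leave room for interactions of either sign in Nolc1 and Naf1.

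The mean was highest in CB for all 10 genes, and for 6 (Nop58, Fbl, Dkc1, Nhp2, Naf1 and Nolc1) the order of the means was isotype, anti-Lag3, anti-PD-L1 and CB. Neighbours in this order did not all differ beyond their spread. None of the 10 genes was called between anti-Lag3 and isotype. The anti-Lag3 and anti-PD-L1 samples overlapped in 8 of the 10 genes, the exceptions being Nop56 and Naf1, where every anti-PD-L1 sample was higher. That pair of groups was not tested. The shares of all genes with the same order of means or the same overlap were not computed, so these counts are a description only.

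Because partners of 1 particle differed in their calls, the ratio of their reads was compared between CB and isotype in each mouse, for all 12 pairs within a class. This comparison was added after the values had been seen. A 3′ library counts transcript ends, and a ratio here is a ratio of read counts and not of proteins. Dkc1 to Nop10 was 1.22, 1.03 and 1.29 in isotype and 2.16, 1.91 and 1.93 in CB, a difference of 0.77 on the log2 scale without overlap. Dkc1 to Gar1 was 1.55, 2.05 and 1.57 against 2.39, 2.58 and 2.52, a difference of 0.55. Nop58 to Nop56 was 3.71, 3.34 and 3.48 in isotype and 4.32, 4.25 and 4.45 in CB, a log2 difference of 0.31, also without overlap. Dkc1 to Nhp2 overlapped between the groups, with a difference of 0.21. In 5 of the 12 pairs the groups did not overlap. The pairs share genes, and each ratio was set so that CB had the higher mean. How often other gene pairs separate in this way was not computed, so the count is a description. Each of the 5 had an exact two-sided permutation p of 0.1 and a Benjamini-Hochberg value of 0.24 over the 12 pairs, but 0.1 is the smallest p that 3 against 3 allows, so no pair could have passed and the p-values do not bear on unequal change.

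**Figure D3:**
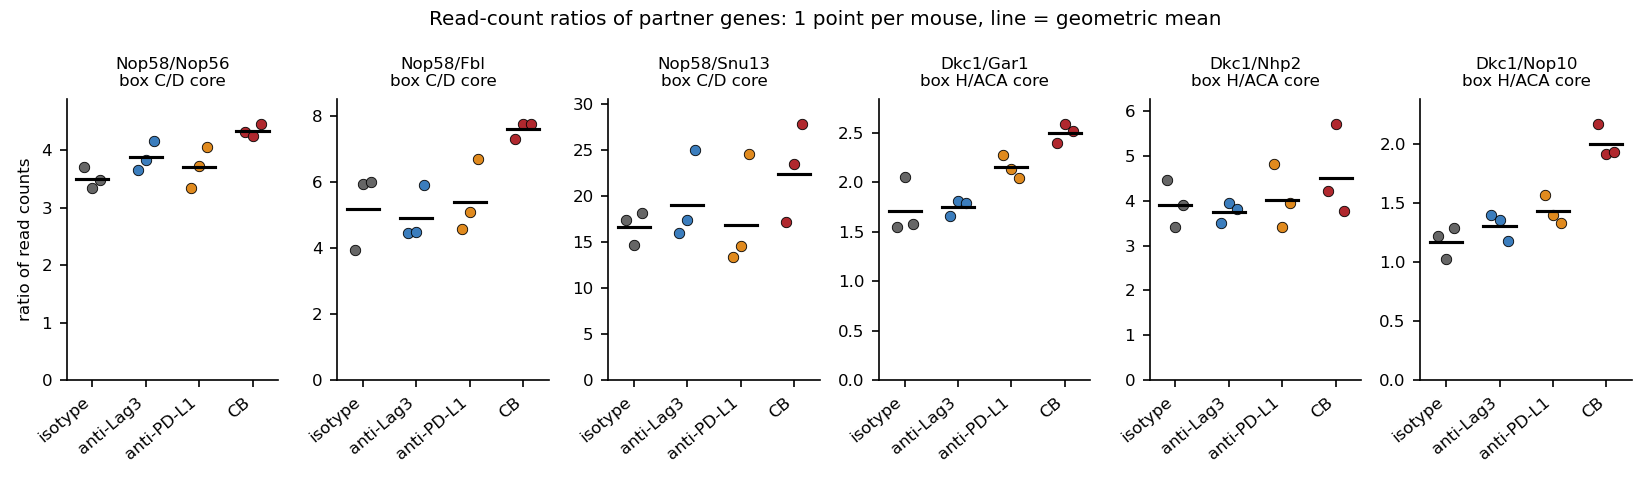
Ratio of read counts (y axes start at 0) of Nop58 to each box C/D partner and of Dkc1 to each box H/ACA partner, 1 point per mouse and a line for the geometric mean of 3 mice. The CB points lie above the isotype points for Nop58/Nop56, Nop58/Fbl, Dkc1/Gar1 and Dkc1/Nop10 and overlap with them for Nop58/Snu13 and Dkc1/Nhp2.

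The 10 genes also varied together to different degrees over the 12 samples. With the mean of the 10 standardised log2 levels, which includes the gene itself, Dkc1 had a Pearson r of 0.98, Nolc1 0.90, Nop56 and Nop58 0.89, Naf1 0.88 and Nhp2 0.82, whereas Snu13 had 0.69, Gar1 0.59, Fbl 0.57 and Nop10 0.40. The 5 other genes with the highest r to that mean were Rsl1d1 (0.98), a nucleolar protein of ribosome synthesis, Lrpprc (0.96), which binds mitochondrial mRNAs, Eif3d (0.95), a subunit of a translation initiation factor, Nsun2 (0.94), an RNA cytosine methyltransferase, and Bsg (0.94), the membrane glycoprotein basigin. Rsl1d1 measured 238 ± 13 CPM in isotype, 265 ± 27 with anti-Lag3, 302 ± 26 with anti-PD-L1 and 392 ± 33 in CB. Nsun2 measured 192 ± 7.2, 236.5 ± 20, 239 ± 19 and 336 ± 30 in the same order (SD, n = 3). These correlations are a description, since the points share their libraries and fall into the 4 groups.

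Other proteins of the snoRNP pathway were taken from fixed lists, also chosen with earlier results of these data known. The comparison is CB with isotype throughout. Of 10 other genes listed as assembly or nucleolar factors, 2 were called higher and none lower, against 2.33% of all genes called higher. The median log2 fold change of the 10 was 0.47. Znhit6 (BCD1), needed for box C/D assembly, had 52.2 ± 8.6 CPM in CB and 30.6 ± 5.0 in isotype (0.77, adjusted p = 0.0293), and Tcof1 (treacle), a nucleolar partner of ribosomal RNA transcription, 508 ± 14 and 368 ± 61 (0.47, adjusted p = 0.00604). The AAA+ ATPases Ruvbl1 (0.56) and Ruvbl2 (0.40) and the R2TP subunit Pih1d1 (-0.07) were not called. Of 4 proteins particular to the U3 snoRNP, which guides cleavage of the ribosomal RNA precursor, 2 were called higher, against the same 2.33%: Mphosph10 with 86.2 ± 10.1 against 51.3 ± 15.7 CPM (0.75, adjusted p = 0.0166) and Imp3 with 154 ± 21 against 112 ± 16 (0.46, adjusted p = 0.0424). Rrp9 (0.64) and Imp4 (0.28) were not called, and the U3 median was 0.55. None of the 4 called genes was called without isotype 1 or with DESeq2 against a log2 fold change of 0.2. Of the assembly or nucleolar factors 1 was called without isotype 3 or CB 3. Of the U3 proteins 0 were called without CB 1 and 1 without isotype 2, isotype 3, anti-Lag3 2, anti-Lag3 3 or CB 3.

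Snu13 and Dkc1 also serve other particles, and 2 further lists held proteins of the U4/U6 particle and of telomerase and telomeres. Of 5 proteins of the spliceosomal U4/U6 particle none was called by edgeR (3 at an unadjusted p under 0.05, against 14.9% of all genes, and 1 called by DESeq2 against 0 or without CB 2), with a median of 0.38; Prpf4 had 0.51, Sart3 0.38 and Ppih -0.09. Of 12 telomerase and telomere proteins none was called by edgeR, none had an unadjusted p under 0.05, and the median was -0.05, with 5 of 12 above 0, against 48.8% of all genes. This list holds shelterin and other telomere proteins beside those of telomerase, so its median does not stand for telomerase. Of the shelterin proteins, Terf2 (-0.06), Acd (0.20) and Tinf2 (-0.11) lay nearest to 0. The others, named after their values were seen, were more spread: Terf1 -0.44, Pot1a -0.43, Terf2ip 0.35 and Pot1b 0.96. Tert, the catalytic subunit of telomerase, named after its values were seen, had 1.15 ± 1.02 CPM in isotype and 4.27 ± 2.68 in CB, a log2 fold change of 1.89 with an adjusted p of 0.380, and at 714 reads in all it was too shallow to place. Differences between lists in calls or medians were not tested.

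**Figure D4:**
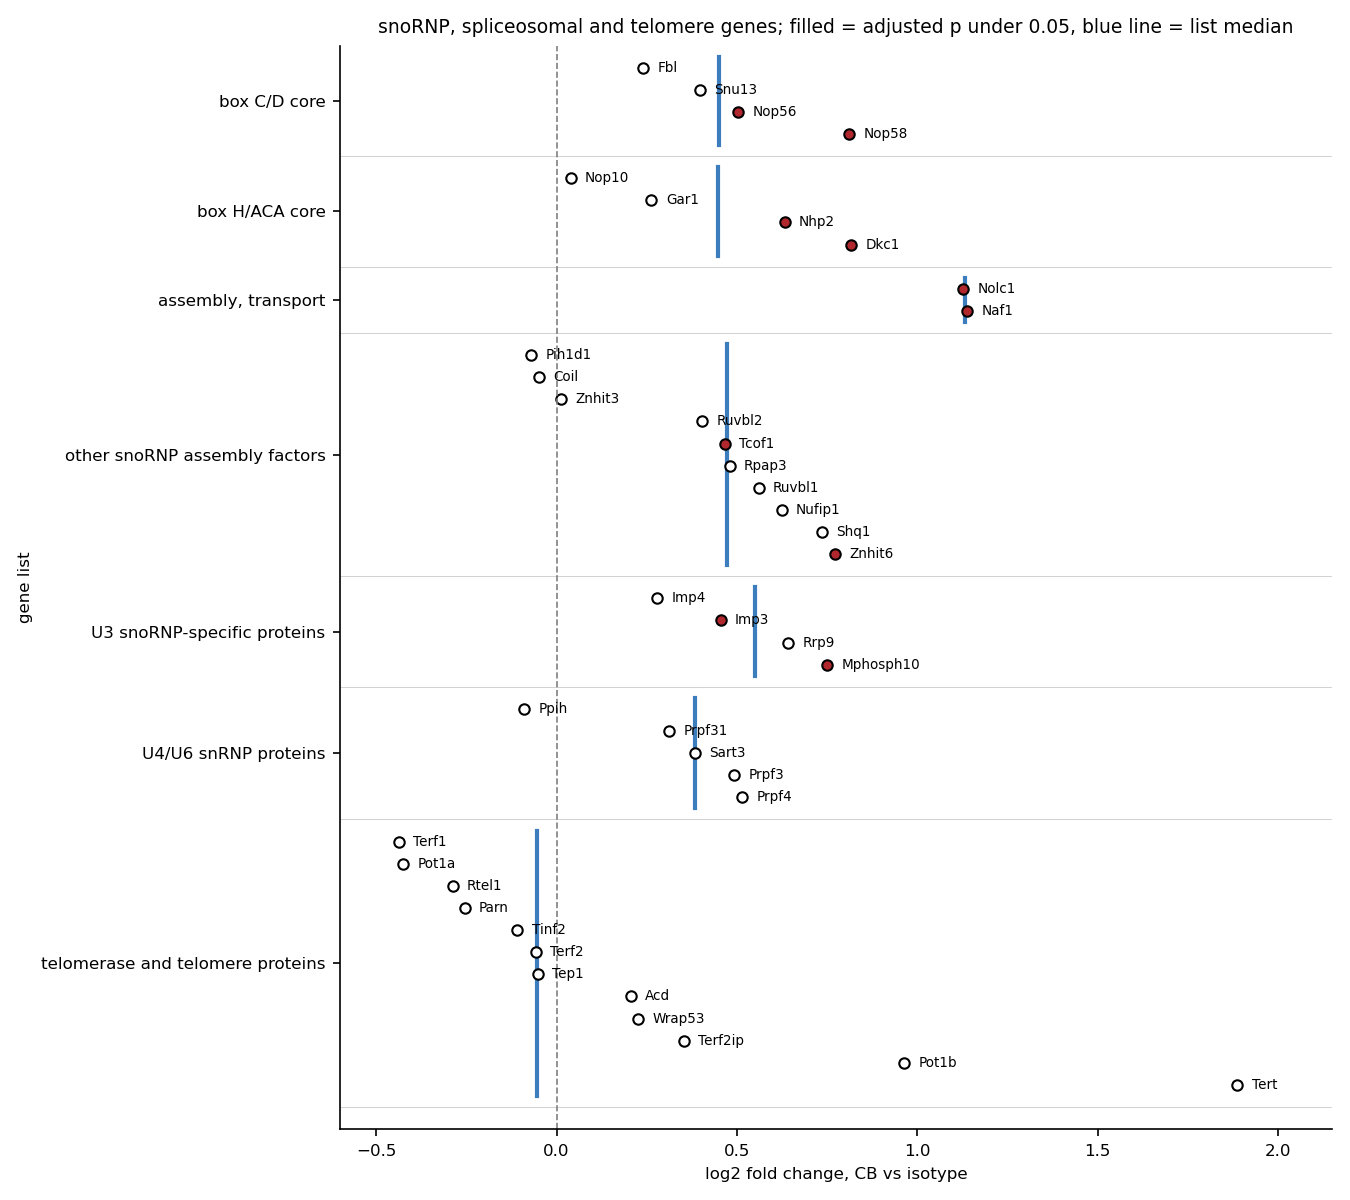
log2 fold changes of CB over isotype (x axis) for each gene of 7 lists (y axis), with blue lines for list medians and filled points for an adjusted p under 0.05. Medians run from 0.38 to 1.13 in the snoRNP and U4/U6 lists and stand at -0.05 in the telomere list, in which no gene was called.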

How the data were processed

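Libraries were 3′ mRNA-seq (QuantSeq) from sorted cells of 12 mice, without molecular identifiers, so PCR copies are not told apart. Per the labels and the study's methods, the authors trimmed reads with Cutadapt 1.18, aligned them with STAR 2.6.1a to GRCm38 and made the raw counts, of uniquely mapped reads per gene, with featureCounts 1.6.4; the annotation release and strand setting are not given in the sources used here. The authors also deposited log2-scale rlog values for 10492 genes, which were read but not tested. Symbols came from the GRCm38 annotation GENCODE M21.

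Genes with at least 30 reads over all samples (15138) were tested with edgeR 4.0.16 in R 4.3.3 (TMM, glmQLFit and glmQLFTest, 4 group means, Benjamini-Hochberg, adjusted p under 0.05), and the script was tested on simulated data. DESeq2 1.42.0, another normalization, other filters, a replicate block, fits of the compared groups only and leaving out each sample were alternatives. Standard errors were the log2 fold change over the root of F, and intervals 95%. The 12 same-group pairs of libraries differed by 22.4 to 55.5 times their sampling noise (chi-square per degree of freedom), so each was counted as a sample of its own. Shares and intervals cover counting or mouse-to-mouse error only, and each mouse gave 1 library.

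The members and lists were chosen with earlier results of these data known. The named genes were all 10 members, the genes called in CB vs isotype of each other list with up to 3 not called (highest mean CPM), the 5 genes closest to the members' mean (mean count 30 or more), and snoRNAs nested in a member. Tert, Terf1, Pot1a, Terf2ip and Pot1b were named in addition, after their values were seen.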

Additional observations from a re-analysis of the deposited data

How the results depend on the processing

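The number of the 10 snoRNP genes called in CB vs isotype was 6 in 6 of the 7 alternative settings and 3 (Nop58, Dkc1 and Nolc1) with DESeq2 against a log2 fold change of 0.2, and 4 to 6 when each sample was left out. Against anti-PD-L1 the 3 calls became 1 with DESeq2 against 0.2, 0 in a fit of the compared groups only and 0 to 3 with a sample left out; against anti-Lag3 the 4 became 3 and 3 to 4. With anti-PD-L1 alone the 0 calls became 3 with DESeq2 against 0, where 31 of 13273 genes were called higher. They became 1 with no filter, where 21 of 20672 genes were called higher. Leaving out a sample gave 0 to 0 with anti-PD-L1 alone, with anti-Lag3 alone and for the interaction. The cause of these differences was not tested. By the limit of 0.1 in every pair, replicate numbers were not taken to pair the samples: the deviations of same-numbered samples correlated at -0.061 to 0.125 (median 0.0605, 18 pairs), against a median of -0.015 for different numbers. Pairs numbered 1 ranged from 0.014 to 0.125 and pairs numbered 3 from 0.043 to 0.086, all above 0. Pairs numbered 2 ranged from -0.061 to 0.089. A pairing weaker than the limit would be missed, and the main fit holds no term for it. The study sorted mice in batches of 4 and reads the second principal component of its data as largely a batch sorting effect. Whether the numbers mark those batches is not given in the sources used here. The replicate block left the members called at 6, 3, 4, 0, 0 and 0 in the 6 comparisons, and moved the calls over all genes from 649 to 843 in CB vs isotype and from 56 to 137 in CB vs anti-PD-L1.

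Changes of sign occurred only in log2 fold changes that were not called. With a sample left out these ranged from -0.062 to 0.146 for Nop10 in CB vs isotype; in CB vs anti-PD-L1 from -0.080 to 0.124 for Fbl, -0.093 to 0.253 for Snu13 and -0.015 to 0.025 for Nop10; and from -0.055 to 0.096 for Fbl in CB vs anti-Lag3. In anti-PD-L1 vs isotype they ranged from -0.127 to 0.093 for Gar1 and -0.065 to 0.142 for Nop10, and in anti-Lag3 vs isotype from -0.068 to 0.059 for Nop56, -0.167 to 0.098 for Snu13, -0.030 to 0.190 for Gar1 and -0.137 to 0.071 for Nop10. In the interaction they ranged from -0.052 to 0.294 for Snu13, -0.067 to 0.140 for Nop10 and -0.360 to 0.194 for Naf1. Nop10 in CB vs anti-PD-L1 also came to -0.005 with DESeq2 against 0 or 0.2 and with DESeq2 size factors.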
